A study of Mus musculus with 6 samples.

Results

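The GABA-A receptor is the chloride channel through which GABA, the main inhibitory transmitter of the cortex, acts within milliseconds. The report concerns 7 of its subunit genes in the pre-limbic cortex (PLc), namely Gabra2, Gabra3, Gabra4, Gabra5, Gabrb1, Gabrb2 and Gabrd. They were taken by symbol from a table of 37620 genes, and all 7 were found once, beside 9 further genes of the family that are described here. The rule that picks them uses symbols alone, although the set was drawn up with earlier results of these data known. PLc tissue came from C57Bl/6 mice aged 9 weeks, 3 given saline (mice 1, 6 and 10) and 3 given ketamine at 30 mg/kg (mice 3, 5 and 9). Both groups were injected i.p. daily for 5 days, and the tissue was frozen 2 days after the last injection. Each mouse gave its own library of bulk tissue, with between 26273436 and 32643726 reads counted in genes. Values are normalized counts, that is, reads per gene divided by a size factor for the library.

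A receptor is a ring of subunits around a chloride pore, usually alpha, beta and gamma subunits together, and the delta subunit can take the place of gamma. GABA binds between alpha and beta, and classical benzodiazepines bind between alpha and gamma. The alpha 2 and alpha 3 subunits (Gabra2, Gabra3) are found mostly at synapses and carry brief inhibition. The alpha 4, alpha 5 and delta subunits (Gabra4, Gabra5, Gabrd) are found mostly outside synapses and carry tonic inhibition by ambient GABA, with delta as a usual partner of alpha 4 in the forebrain. The beta 1 and beta 2 subunits (Gabrb1, Gabrb2) take part in receptors of both kinds. In the cortex, alpha 5 is known from deep-layer pyramidal neurons. Ketamine blocks the NMDA receptor, and the comparison asks whether the mRNA of these subunits differed in the PLc after repeated ketamine.

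Alpha subunits differ at a single codon that decides whether classical benzodiazepines bind, and this stretch of coding sequence is shown because it separates alpha 4 from the other alpha members. It was read 5′ to 3′ on the coding strand from GENCODE M1 transcripts, matched the mm9 genome base for base, and lies within a coding exon on the minus strand in each gene. Capitals mark the codon, which follows the codons of the residues Asp, Thr, Phe and Phe. It is a histidine codon in Gabra2, Gabra3 and Gabra5 and an arginine codon in Gabra4.
Gabra2 (chr5:71405720-71405770): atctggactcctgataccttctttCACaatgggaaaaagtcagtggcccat
Gabra3 (chrX:69746483-69746533): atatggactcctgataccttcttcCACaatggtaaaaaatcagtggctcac
Gabra5 (chr7:64744237-64744287): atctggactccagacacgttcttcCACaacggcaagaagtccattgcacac
Gabra4 (chr5:72032367-72032417): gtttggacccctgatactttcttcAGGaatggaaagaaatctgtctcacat

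The translated coding sequences of Gabra2, Gabra3 and Gabra5 were between 72.0% and 73.6% identical in pairs, while Gabra4 was between 61.0% and 61.5% identical to them. Gabrb1 and Gabrb2 were 80.3% identical. Despite this, the longest run of coding bases shared by any pair of alpha members was 24 bases, in Gabra3 and Gabra5. Gabrb1 and Gabrb2 shared at most 17 bases, and Gabrd shared at most 14 with any other member. Such runs are short against the paired-end reads of the study. The UTRs were not compared.

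The genes lie in the clusters that are typical of this family, here by GENCODE M1 on mm9. Gabra2 (71352296 to 71487088, minus strand), Gabra4 (71960973 to 72049547, minus strand) and Gabrb1 (72091171 to 72529628, plus strand) lie on chromosome 5. Gabra4 and Gabrb1 point away from each other with 41624 bases between their annotated starts. Gabra5 lies on chromosome 7 (64663060 to 64765379, minus strand), Gabrb2 on chromosome 11 (42233259 to 42446092, plus strand), Gabra3 on chromosome X (69678020 to 69902187, minus strand) and Gabrd, outside any such cluster, on chromosome 4 (154759089 to 154772221, minus strand). Exons of Gabra5 overlap those of Gm9962, transcribed from the opposite strand, by 118 bases, and Gm9962 averaged 28.2 normalized counts. No other member shares exon bases with an annotated gene.

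Levels of regional and cell type markers differed between libraries. Among the saline mice, mice 1 and 6 lay closest together on the lists of regional markers checked. All 19 markers of cortical excitatory neurons were detected, and their defining gene Slc17a7 had between 22152 and 49417 normalized counts. The summed level of that list ranged from 168103 to 231249 after saline and from 118608 to 183977 after ketamine. Of 29 tested markers of striatal medium spiny neurons, 8 were above all saline values in all ketamine mice, a share to be read against 5.69% of all 16127 genes tested. Their sum was 143253 and 85466 in ketamine mice 3 and 5, against 37820 in ketamine mouse 9 and 31795 to 42629 in saline mice, where Drd3 and Isl1 were at 0 in mice 1 and 6. Of 17 olfactory bulb markers, 7 were above all saline values in the ketamine mice, with sums of 8906 to 26781 against 6521 to 8762, and Lhx1 was at 0 in saline mice 1 and 6. The highest of these sums was in ketamine mouse 9. By the same measure, 1 of 19 cortical excitatory, 1 of 10 PV interneuron and 3 of 12 thalamic markers were higher, and 4, 3 and 0 of them were lower, where 4.66% of all genes tested were lower. The PV interneuron marker that was higher was Tac1, which is also on the striatal list, and the cortical marker was Bcl11b. The 10 oligodendrocyte markers summed to 393974 in saline mouse 10, against 46148 and 58766 in the other saline mice and 109600 to 167873 in ketamine mice. The 8 choroid plexus markers summed to 3289 in saline mouse 10, against 128.4 and 256.7 in the other saline mice and 250.2 to 1281 in ketamine mice. Slc6a3, on the olfactory bulb list, had 1821 normalized counts in saline mouse 10. It had 4.79 and 2.9 in saline mice 1 and 6 and 25.4 to 101.5 in ketamine mice. The part of these differences in the results for the subunits was not tested. In bulk tissue, fewer cells of a type and less RNA per cell cannot be told apart.

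None of the 7 subunits differed between ketamine and saline beyond the spread between mice. Gabra5 had the change farthest from 0 and Gabrd the nearest to 0, at log2 fold changes of -0.45 and 0.02. The saline and ketamine values overlapped for every one of the 7, as they did for most genes. Over the 16127 genes tested, the ketamine mice stood above all saline mice for 5.69% and below them for 4.66%. By limma on log2(normalized count + 1), 0 of 7 members had an adjusted p under 0.05, as did 0% of all genes tested. The adjusted p was 0.999 for each of them. At an unadjusted limma p under 0.05, the count was 0 of 7, against 5.81% of genes tested. It was 2 of 7 without saline mouse 10 (Gabra3 and Gabra4, with 1778 of all 16089 genes). On the reads recovered from the values, edgeR and DESeq2 also called 0 of 7, and DESeq2 called 0.899% of genes tested higher and 0.229% lower. With 3 mice against 3, the smallest p of an exact permutation test is 0.1, and the intervals below show how large a change these mice could still have had.

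**Figure D1:**
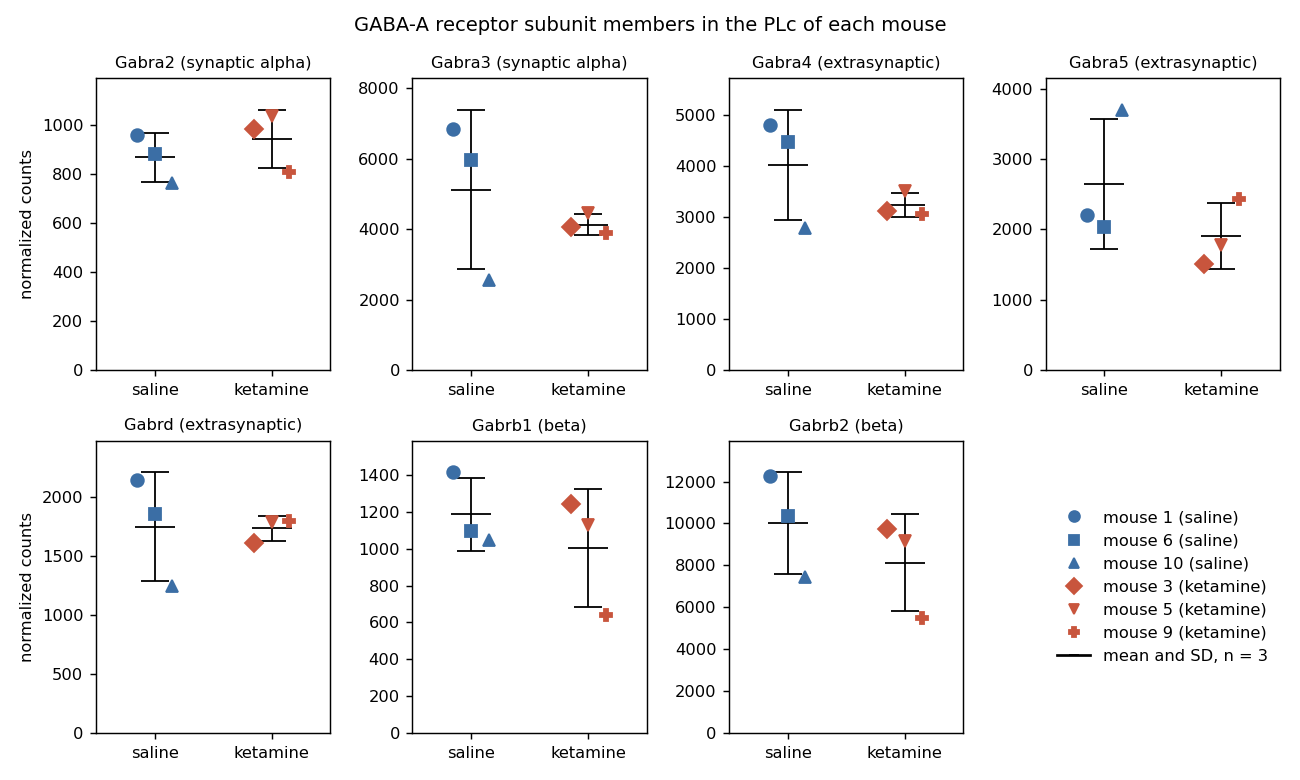
Normalized counts of the 7 subunit genes, with a point for each mouse and the mean and SD of each group (n = 3). The saline and ketamine points overlap in every panel, and saline mouse 10 is the lowest of all 6 mice for Gabra2, Gabra3, Gabra4 and Gabrd but the highest for Gabra5.

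The synaptic alpha subunits came first. Gabra2 (ENSMUSG00000000560), the alpha subunit known for its place on the axon initial segment of pyramidal neurons, had 957.9, 882.1 and 761.0 normalized counts in saline mice 1, 6 and 10. The values of ketamine mice 3, 5 and 9 were 980.8, 1036 and 807.6. The lowest value was in saline mouse 10 and the highest in ketamine mouse 5, and the groups overlapped, at 867.0 ± 99.3 in saline and 941.4 ± 119.1 in ketamine (SD, n = 3 each). This was a log2 fold change of 0.12 with a 95% interval of -0.25 to 0.48 (exact permutation p = 0.5). It was the most even of the 7 subunits, with a ratio of 1.36 between the highest and the lowest of the 6 mice. Without ketamine mice 3 and 5, the libraries with raised striatal markers, the value was -0.10, with ketamine mouse 9 as the single ketamine mouse.

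Gabra3 (ENSMUSG00000031343), which encodes the alpha 3 subunit, had 6860, 5966 and 2561 normalized counts in saline mice 1, 6 and 10. The values were 4055, 4453 and 3890 for ketamine mice 3, 5 and 9. The ketamine mice lay close together, between the pair of high saline mice and the low saline mouse 10. The means were 5129 ± 2268 in saline and 4133 ± 289.4 in ketamine (SD, n = 3 each), at a log2 fold change of -0.19 (95% interval -1.02 to 0.63, exact permutation p = 0.8). Leaving out saline mouse 10 moved it to -0.63, and leaving out saline mouse 1 moved it to 0.08.

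Among the extrasynaptic subunits, Gabra4 (ENSMUSG00000029211) followed Gabra3. This gene of the benzodiazepine-insensitive alpha 4 subunit had 4808, 4478 and 2786 normalized counts in saline mice 1, 6 and 10, followed by 3128, 3511 and 3070 for ketamine mice 3, 5 and 9. All ketamine mice were again below saline mice 1 and 6 and above saline mouse 10. The means were 4024 ± 1085 and 3236 ± 239.4 (SD, n = 3 each), with a log2 fold change of -0.28 (95% interval -0.79 to 0.24, exact permutation p = 0.4). It was -0.52 without saline mouse 10 and -0.13 without saline mouse 1.

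Gabra5 (ENSMUSG00000055078), the alpha 5 gene, had a different order of mice. The normalized counts were 2202, 2033 and 3702 for saline mice 1, 6 and 10, then 1515, 1780 and 2429 for ketamine mice 3, 5 and 9. The mice with the most Gabra5 were saline mouse 10 and ketamine mouse 9, which for most other members were the lowest. The means were 2646 ± 918.4 and 1908 ± 470.3 (SD, n = 3 each), and the log2 fold change of -0.45 had a 95% interval of -1.09 to 0.19 (exact permutation p = 0.3). It shrank to -0.18 without saline mouse 10 and grew to -0.63 without ketamine mouse 9. With ketamine mice 3 and 5 left out together it was -0.07, with ketamine mouse 9 as the single ketamine mouse. Mice 3 and 5 were the mice with the least Gabra5.

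Gabrd (ENSMUSG00000029054), the gene of the delta subunit, had 2144, 1859 and 1242 normalized counts in saline mice 1, 6 and 10. For ketamine mice 3, 5 and 9 the values were 1612, 1788 and 1800. The ketamine values fell inside the range of the saline values. The group means were nearly equal, at 1748 ± 461.0 and 1734 ± 105.3 (SD, n = 3 each), with a log2 fold change of 0.02 and a 95% interval of -0.47 to 0.51 (exact permutation p = 1.0). Its sign turned in DESeq2, at -0.0041, and without saline mouse 10 the value was -0.21.

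The beta subunits, which line the GABA binding site with alpha, were lowest in ketamine mouse 9. Gabrb1 (ENSMUSG00000029212) had 1414, 1094 and 1049 normalized counts in saline mice 1, 6 and 10, against 1240, 1130 and 638.1 for ketamine mice 3, 5 and 9. Ketamine mice 3 and 5 thus lay within the saline range and mouse 9 alone lay below it. The means were 1186 ± 198.9 and 1003 ± 320.5 (SD, n = 3 each), with a log2 fold change of -0.29 (95% interval -0.92 to 0.34, exact permutation p = 0.6). Without ketamine mouse 9 it was 0.01.

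Gabrb2 (ENSMUSG00000007653), the more abundant beta gene of the pair, had 12256, 10331 and 7438 normalized counts in saline mice 1, 6 and 10. Those of ketamine mice 3, 5 and 9 were 9741, 9152 and 5484. As for Gabrb1, ketamine mice 3 and 5 were inside the saline range and mouse 9 was below it. The means were 10009 ± 2426 and 8125 ± 2306 (SD, n = 3 each), at a log2 fold change of -0.32 (95% interval -0.96 to 0.33, exact permutation p = 0.4). It was -0.05 without ketamine mouse 9, the library with the highest olfactory bulb markers, and -0.51 without saline mouse 10.

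Taken by class, the median log2 fold change was -0.04 over the 2 synaptic alpha genes, -0.28 over the 3 extrasynaptic genes and -0.30 over the 2 beta genes. Over all 7 it was -0.28, with 2 genes above and 5 below 0, beside a median of -0.0145 over all genes tested. Among those 16127 genes, 7572 were above 0 and 8555 below. No class held a gene that passed the threshold. The members share mice and several vary together, so these medians are given with no test.

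**Figure D2:**
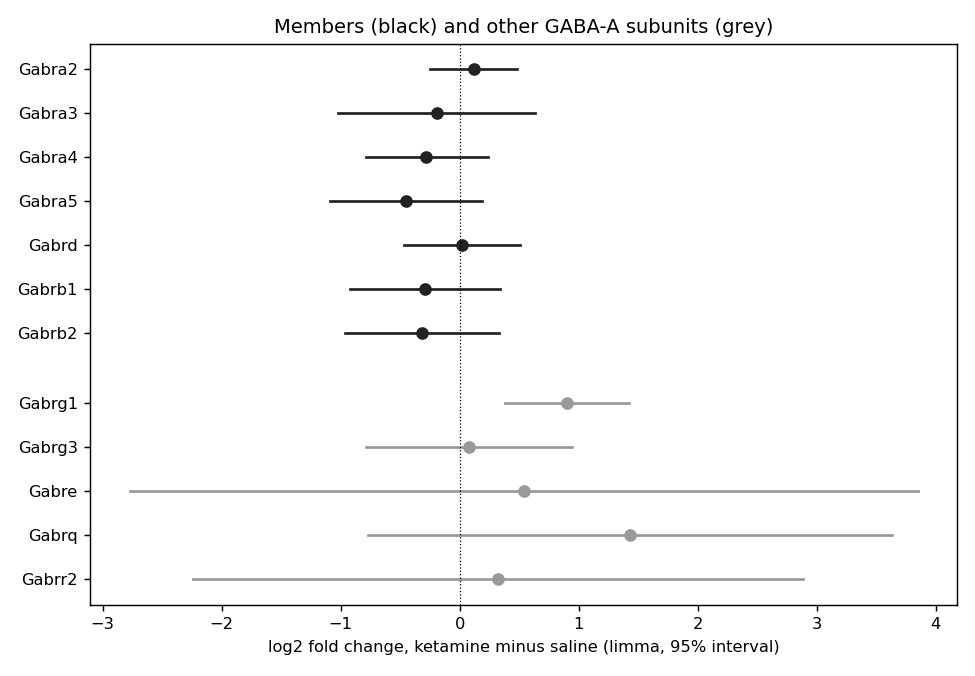
Log2 fold change of ketamine minus saline by limma with its 95% interval, for the 7 members in black and 5 other GABA-A subunits in grey. Every black interval spans 0, with Gabra2 the narrowest at -0.25 to 0.48, and Gabrg1 is the sole gene whose interval lies above 0, at 0.38 to 1.42.

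Mice of the same group differed widely in these genes, and the ratio of the highest to the lowest of the 6 mice reached 2.68, for Gabra3. Saline mouse 1 had the highest value for 5 of the 7 members, and saline mouse 10 the lowest for 4. Saline mouse 10 was among the lowest pair of mice for 6 members, with Gabra5 as the exception, and ketamine mouse 9 for 5. As log2 differences from the saline mean, saline mouse 10 stood at -0.88 for Gabra3, -0.49 for Gabra4 and -0.46 for Gabrd, and at 0.54 for Gabra5. Ketamine mouse 9 stood at -0.88 for Gabrb1 and -0.84 for Gabrb2, but at 0.08 for Gabrd. Saline mouse 10 was the library with the most oligodendrocyte marker reads, and its cortical excitatory marker score was -0.29. That score was lowest in ketamine mouse 3 (-0.61), followed by ketamine mouse 9 (-0.45), and mouse 3 had the lowest value for Gabra5 alone.

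**Figure D3:**
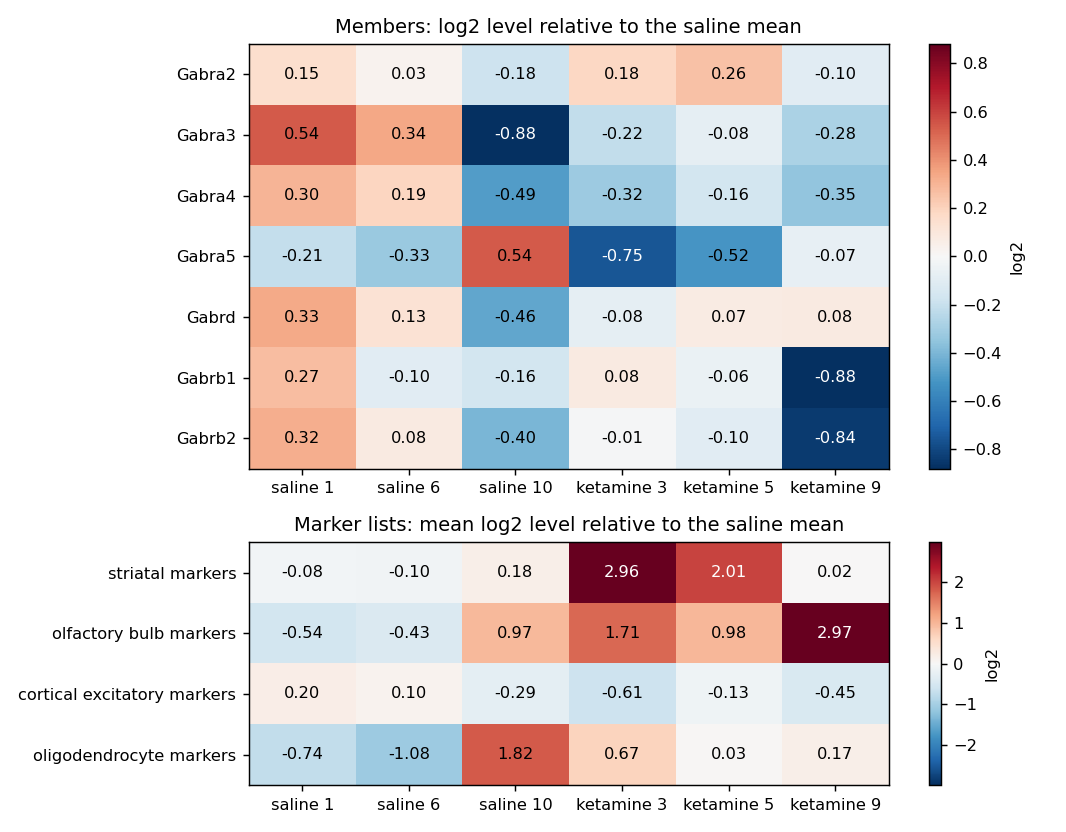
Log2 level of each member (top) and mean log2 level of 4 marker lists (bottom) in each mouse as a difference from the saline average, with colour and number giving the same value. Gabra5 is raised in saline mouse 10 (0.54) where Gabra3 is low (-0.88), both beta genes are low in ketamine mouse 9, and the striatal markers are high in ketamine mice 3 and 5 (2.96 and 2.01).

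Some members kept a steady proportion across libraries that differed in marker levels. Ratios within a mouse do not depend on how libraries are scaled, and 21 ratios can be formed from the 7 genes. The log2 ratio of Gabrb1 to Gabrb2 stayed between -3.24 and -2.83 in all 6 mice, although each gene varied between its highest and lowest mouse by a ratio of 2.22 (Gabrb1) or 2.23 (Gabrb2). These genes lie on different chromosomes. The log2 ratio of Gabra3 to Gabra4 was between 0.34 and 0.51 in 5 mice and -0.12 in saline mouse 10. That of Gabra2 to Gabrd stayed between -1.16 and -0.71 in all 6 mice. By contrast Gabra4 and Gabrb1, neighbours on chromosome 5, had log2 ratios from 1.33 in ketamine mouse 3 to 2.27 in ketamine mouse 9. As a description over the 6 mice, Pearson's r of the log2 values was 0.94 for Gabrb1 and Gabrb2, 0.95 for Gabra3 and Gabra4, and -0.86 for Gabra2 and Gabra5. It was 0.56 for Gabra2 and Gabrd. The points share the libraries and their marker levels described above.

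Of the 21 ratios, that of Gabra4 to Gabrd was the only one in which saline and ketamine did not overlap. This pair, whose products assemble together, was singled out after the values were seen. The log2 ratio was 1.17, 1.27 and 1.17 in saline mice 1, 6 and 10, against 0.96, 0.97 and 0.77 for ketamine mice 3, 5 and 9. Less Gabra4 per Gabrd was thus found in each ketamine mouse, with means of 1.20 ± 0.06 in saline and 0.90 ± 0.11 in ketamine (SD, n = 3 each). For comparison, the ratio to Gabra4 did not overlap between the groups for 6.3% of 16071 other genes. No test was run on this ratio.

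Levels can be compared between genes only per length of exon, and they are given here as normalized counts per kb of annotated exon. Over the 6 mice, Gabra3 was highest at 1180 ± 394, followed by Gabrb2 at 914 ± 237, Gabra4 at 880 ± 200 and Gabra5 at 858 ± 289 (SD, n = 6). Gabrd came next at 606 ± 104, then Gabra2 at 378 ± 44.4 and Gabrb1 at 354 ± 83.8. The order held in all 6 mice only for Gabra5 above Gabrd and for Gabrd above Gabra2. Gabra3 exceeded Gabrb2 in 5 of 6 mice, and the other neighbours (Gabrb2 and Gabra4, Gabra4 and Gabra5, Gabra2 and Gabrb1) stood in that order in 4 of 6 mice, within their spread. By group the order differed, as Gabra2 was below Gabrb1 in the saline means (362 and 384) and above it in the ketamine means (394 and 325), and Gabra5 was above Gabra4 in the saline means (997 and 975) and below it in the ketamine means (719 and 784). Over the 6 mice, the level of Gabrb1 was above that of 70.7% of the genes tested. Exon lengths cover all annotated isoforms, so a gene with a long isoform that is little used, such as Gabrb2 with 9.92 kb, may be placed too low.

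Among the 4 alpha members, the make-up varied most in Gabra5. Per kb of exon, Gabra5 made up 20% of their summed level in saline mouse 1, nearly the same in saline mouse 6 and 45.9% in saline mouse 10, against 20.6%, 21.7% and 30.6% for ketamine mice 3, 5 and 9. Saline mouse 10 and ketamine mouse 9 therefore stood apart from the other 4 mice. Gabra3 made up 42.2%, 40.6% and 21.5% in saline mice 1, 6 and 10, against 33.2% to 37.3% after ketamine. Gabra4 was steadier, between 22.2% and 29% in all mice. Gabra2 took the smallest share, at 9.66%, 9.86% and 10.5% after saline against 14.8%, 14% and 11.3% for ketamine mice 3, 5 and 9, so the groups did not overlap in that share. Set over the same sum, 16.1% of all genes tested were higher in the ketamine mice without overlap, and the shares were not tested. The log2 ratio of the extrasynaptic alpha genes (Gabra4 and Gabra5) to the synaptic ones (Gabra2 and Gabra3) was -0.11, -0.03 and 1.09 in saline mice 1, 6 and 10. For ketamine mice 3, 5 and 9 the ratio was -0.12, -0.04 and 0.32, so that the groups overlapped and saline mouse 10 was again the extreme.

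Within the summed level of the 7 members, the extrasynaptic genes took between 40.1% and 54.8% in all mice, the synaptic alpha genes between 21.3% and 32.7%, and the beta genes between 17.4% and 29.3%. The groups overlapped for each class. For single members, the share of Gabra2 was 6.08% to 6.97% in saline and 7.72% to 8.69% in ketamine, and that of Gabrd was 9.47% to 11.3% and 11.9% to 14.3%. These were the 2 of 7 shares in which the groups did not overlap. Of all genes tested, 10.4% were higher in the ketamine mice without overlap when set over the same summed level. The shares sum to a whole and depend on each other and on exon length, and they were not tested.

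**Figure D4:**
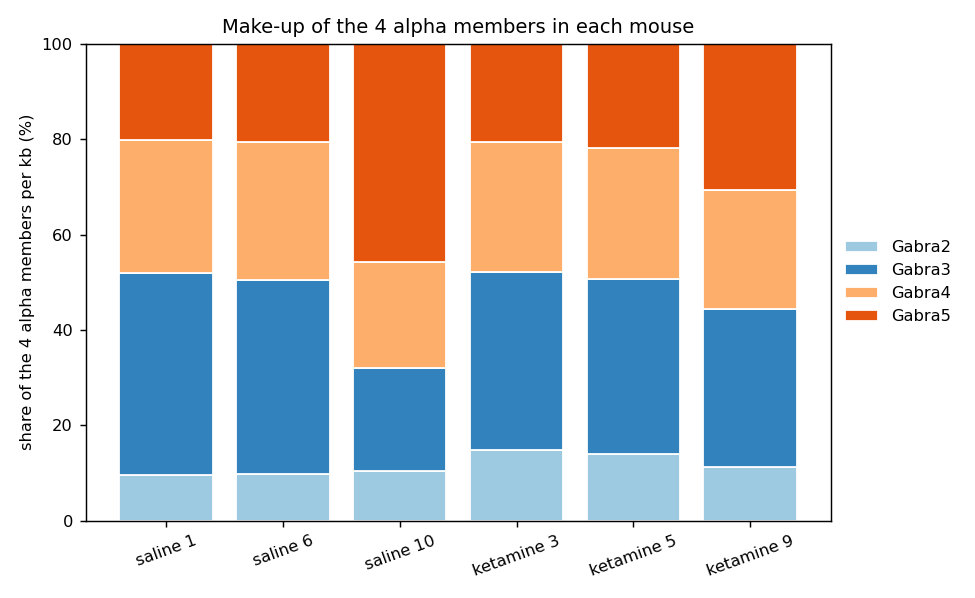
Share of Gabra2, Gabra3, Gabra4 and Gabra5 in their summed level per kb of exon, as stacked bars from 0 to 100% for each mouse. The Gabra5 share is largest in saline mouse 10 (45.9%) and ketamine mouse 9 (30.6%), and the Gabra2 share is 9.66% to 10.5% in saline and 11.3% to 14.8% in ketamine.

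Of 9 other subunits of the family, 5 passed the filter of a mean of 10 normalized counts. Limma called 0 of these 5, with 1 at an unadjusted p under 0.05, against 5.81% of all genes tested. DESeq2 called 1 of the 5 higher, against 0.899% of all genes tested. Gabrg1, the gamma 1 gene beside Gabra2 on chromosome 5, was called by DESeq2 alone. It had 713.6, 726.7 and 798.4 normalized counts in saline mice 1, 6 and 10, against 1962, 1116 and 1222 for ketamine mice 3, 5 and 9. All ketamine mice were above all saline mice, as held for 5.69% of all genes tested. The highest was mouse 3, which also had the highest striatal markers. The log2 fold change was 0.90 (95% interval 0.38 to 1.42, adjusted p = 0.436 by limma and 0.428 by edgeR, exact permutation p = 0.1), and DESeq2 gave 0.95 with an adjusted p of 0.0298.

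Gabrg3 (gamma 3) had a log2 fold change of 0.08 with an adjusted p of 0.999 by limma. Gabrq (theta) had 584.4 normalized counts in ketamine mouse 3 and between 29.7 and 50.8 in the other 5 mice. Gabre (epsilon), also on chromosome X but with Gabra3 between it and Gabrq, had 180.1 in the same mouse and between 2.72 and 19.8 elsewhere. Both were thus high in a single library, with log2 fold changes of 1.43 and 0.54 and an adjusted p of 0.999 by limma. Gabrr2 (rho 2) had 49.4 normalized counts in saline mouse 10 and between 0.96 and 12.7 elsewhere. Its direction depended on the method, with a log2 fold change of 0.32 by limma (adjusted p = 0.999), -0.89 by DESeq2 and -0.86 by edgeR. Gabra6, Gabrp, Gabrr1 and Gabrr3 had at most 4.53 normalized counts in any mouse and were not tested.

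Genes that anchor and move GABA-A receptors were examined as a list of 30, all of them tested. Of these, 9 had a log2 fold change above 0 and 21 below, with a median of -0.09, and limma called 0. Among all 16127 genes tested, 7572 were above 0 and 8555 below. DESeq2 called 1 of the 30 higher, against 0.899% of all genes tested. This was Hap1, a trafficking adaptor that binds GABA-A receptors. Hap1 had 3044, 3323 and 2361 normalized counts in saline mice 1, 6 and 10, against 9551, 4804 and 5749 for ketamine mice 3, 5 and 9. The groups did not overlap, with a log2 fold change of 1.15 (adjusted p = 0.401 by limma, 0.00679 by DESeq2, exact permutation p = 0.1). Ppp3ca, a catalytic subunit of calcineurin, ranged from 42862 to 50521 normalized counts after saline and from 33643 to 36977 after ketamine (log2 fold change -0.41, adjusted p = 0.797 by limma). Git1, a scaffold protein, had a log2 fold change of -0.33 (adjusted p = 0.951 by limma). Of the 30 genes, 1 was higher and 3 were lower in all ketamine mice than in all saline mice. Over all genes tested, 5.69% were higher and 4.66% lower by this measure.

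The chloride gradient decides what the open channel does, and 6 genes that set it were tested. Limma and DESeq2 called 0, and the median log2 fold change was -0.08. Slc12a5, the chloride exporter KCC2 of mature neurons, had 23721, 22065 and 14455 normalized counts in saline mice 1, 6 and 10, against 17211, 19643 and 12734 for ketamine mice 3, 5 and 9. The groups overlapped, and saline mouse 10 and ketamine mouse 9 were lowest, as they were for most members (log2 fold change -0.27, adjusted p = 0.999 by limma). Stk39 and Oxsr1, kinases that act on chloride transporters, had log2 fold changes of -0.17 and -0.10, each with an adjusted p of 0.999 by limma. Stk39 was lower in all ketamine mice (2026 to 2265 normalized counts) than in saline mice (2287 to 2603). This held for 1 of the 6 genes, against 4.66% of all genes tested.

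The genes of GABA synthesis, transport and breakdown, listed with both GABA-B receptor genes, mostly had higher means after ketamine, without passing the test. Of 10 genes, 8 had a log2 fold change above 0, with a median of 0.45, and limma, edgeR and DESeq2 called 0 of them. Among all 16127 genes tested, 7572 were above 0 and 8555 below. Gad1, Gad2 and Slc32a1, which make GABA and load it into vesicles, did not overlap between the groups, with log2 fold changes of 0.75, 0.91 and 0.83 (adjusted p = 0.673, 0.851 and 0.677 by limma). Of all genes tested, 5.69% were likewise higher after ketamine without overlap. Gad2 had 15054 normalized counts in ketamine mouse 3 and 6999 and 4972 in mice 5 and 9, against 3807 to 4598 in saline mice. The striatal marker sums fall in the same order in the ketamine mice. Gad1 was highest in ketamine mouse 9 (21399), the library with the highest olfactory bulb marker sum. Among the ketamine mice, Slc32a1 was lowest in mouse 5 (3143). The part of the marker differences in these values was not tested.

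For each member, the genes with the most similar pattern were found by Pearson's r of log2 values over the 6 mice, among the 12412 other genes that averaged 100 normalized counts or more. They were Phactr2 (r = 0.991) and Grik3 (0.987) for Gabra2, Cog6 (0.999) and Ptgfrn (0.994) for Gabra3, and Trim32 (0.999) and Atl1 (0.995) for Gabra4. For Gabra5 they were D4Bwg0951e (0.986) and Bin1 (0.977), and for Gabrd Ppp2r2b (0.996) and Arhgdia (0.993). Gabrb1 was closest to Klhdc5 (0.997) and Hspa4l (0.997), and Gabrb2 to Magi3 (0.999) and B4galt6 (0.999). With 6 points, such values are common, and the number of genes with r over 0.9 ranged from 55 for Gabra5 to 965 for Gabrb2. Bin1, for example, shared with Gabra5 a maximum in saline mouse 10 (9343 normalized counts) and a minimum in ketamine mouse 3 (5623).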

How the data were processed

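RNA Seq was performed on PLc tissue, with a library for each mouse. Per the paper's methods and the labels, paired-end reads were mapped by the authors with Tophat (2.0.11) on mm9, then counted per gene with HTSeq and passed to DESeq2. The unit of the deposited table is a signal: per gene, counts over the size factor of that library. Annotation and strand setting are not given in the sources used here. Values were whole multiples of a library's step (within 0.1 of a step) for 100.0% of genes above 0, which gave back the reads. Groups and mouse numbers came from the labels, and numbers differ between groups, so nothing was paired. Nothing states that the mice came from separate litters or batches.

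Log2(normalized count + 1) was compared with limma 3.58.1 (R 4.3.3, trended prior variance, two-sided, Benjamini-Hochberg) in the 16127 genes that averaged 10 or more, with a threshold of 0.05. Single genes were also compared with an exact permutation test, two-sided, on mean log2 values. The alternatives were other pseudocounts, filters and scalings, no trend, tests of the recovered reads (edgeR 4.0.16, DESeq2 1.42.0), and mice left out. The tests were checked on simulated reads. Gene names not in the table came from a table of names for 16730 genes, and 5 list genes were matched by an older symbol. Coordinates and exon lengths are those of GENCODE M1. The members and lists were chosen with earlier results of these data known. Named are the members, the tested subunits, the 3 genes of each list with the smallest p or called by DESeq2, and the 2 genes most like each member. Marker scores are means of log2 values. No protein table was used here, and identities are from translated transcripts. Some further subunits of the family are not reported here.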

Additional observations from a re-analysis of the deposited data

How the results depend on the processing

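Over the 17 alternatives for each of the 7 members, limma, edgeR and DESeq2 called 0 members, and 112 of 119 fold changes kept their sign. With each mouse left out in turn, the log2 fold change ranged from 0.03 to 0.22 for Gabra2, -0.63 to 0.08 for Gabra3, -0.52 to -0.13 for Gabra4, -0.63 to -0.18 for Gabra5, -0.21 to 0.19 for Gabrd, -0.47 to 0.01 for Gabrb1 and -0.51 to -0.05 for Gabrb2. The sign turned for Gabra3 without saline mouse 1, for Gabrb1 without ketamine mouse 9 and for Gabrd without saline mouse 10 (-0.21), ketamine mouse 5 (-0.0005) or ketamine mouse 9 (-0.0052). With ketamine mice 3 and 5 both left out, ketamine mouse 9 is the single ketamine mouse, assumed to vary like the saline mice, and Gabra2 was at -0.10, Gabrb1 at -0.88 and Gabrb2 at -0.84. DESeq2 put Gabrd at -0.0041. The number of all genes called was 0 by limma and by edgeR and 182 by DESeq2, and 0 to 1 with a mouse left out (1 without ketamine mouse 5 or 9). The cause was not tested. The members had at least 638.1 normalized counts in each library.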
